A study of Homo sapiens with 2 samples.

Results

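Rb peaks were examined at 9 genes that respond to androgen in prostate cells: KLK3, KLK2, TMPRSS2, FKBP5, SLC45A3, STEAP4, NDRG1, TRPM8 and ACPP. A peak was taken as belonging to a gene when its summit lay within 25 kb of the gene's hg19 start site, as promoter when within 3 kb and as distal otherwise. A peak in the overlapping windows of KLK2 and KLK3 was counted once. This gave 13 of the 31417 deposited peaks: 4 of 9423 in VCaP and 9 of 21994 in LNCaP. Genes and windows were set by gene name and distance, not by the values of the peaks. The choice was nevertheless made with earlier results of these data known.

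The peaks come from chromatin immunoprecipitation and sequencing (ChIP-seq) with a mouse monoclonal antibody against the retinoblastoma protein Rb. VCaP and LNCaP are established human prostate cancer lines that express the androgen receptor. VCaP carries the TMPRSS2-ERG gene fusion, in which the androgen-driven TMPRSS2 promoter is joined to the ERG gene. Cells of both lines, at passage 10 to 15, spent 3 days in medium with 5% charcoal-stripped serum and then 4 h with 10 nM of the androgen dihydrotestosterone (DHT). Each line has 1 library and both had DHT. No value below therefore has a replicate error, none shows an effect of androgen, and there is no test between the lines. Depth was 8691938 filtered tags in VCaP and 3671482 in LNCaP, a ratio of 2.37. Peak lists hold no expression, so the identity of the cells could not be checked on marker genes.

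The androgen receptor is a nuclear receptor that, once bound to DHT, attaches to androgen response elements, many of them in enhancers away from the start sites of the genes it controls. Rb is a tumour suppressor that does not itself read a DNA sequence and reaches chromatin largely through E2F transcription factors at promoters of cell cycle genes. The 9 genes are classical markers of androgen action in the prostate.

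Rb peaks lay close to the start sites of FKBP5, STEAP4 and NDRG1 in both lines, and of KLK2 and SLC45A3 in LNCaP. No promoter peak was called at KLK3, TMPRSS2, TRPM8 or ACPP in either library. Promoter peaks numbered 3 in VCaP and 5 in LNCaP, and every one had its summit within 200 bp of the start site. Distal peaks numbered 1 in VCaP, upstream of KLK3, and 4 in LNCaP, of which 2 were at KLK3, 1 at SLC45A3 and 1 at ACPP. At least 1 peak lay within 25 kb of 4 of 9 genes in VCaP (44.4%, exact 95% interval 13.7 to 78.8) and of 7 of 9 in LNCaP (77.8%, 40.0 to 97.2). In a grid of 50 kb windows over chromosomes 1 to 22 and X, 12.6% of windows held a VCaP summit and 25.6% an LNCaP summit. The contrast between the lines depends on the lists: with the 9423 LNCaP peaks of highest fold, as many as VCaP has, LNCaP also had a peak at 4 of 9 genes, and among peaks whose −log10 q reached 5 there were 1 such gene in VCaP and 6 in LNCaP. The limit of 5 lay below the median −log10 q of each whole list, 5.36 in VCaP and 6.56 in LNCaP. The exact intervals cover counting error only, and the windows of KLK2 and KLK3 are not independent.

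The density of peaks around the loci was also counted. Among 303 windows of 50 kb within 1 Mb of the start sites, the genes' own windows left out, 21.1% held a VCaP summit and 37.6% an LNCaP summit. The surroundings of the 9 genes thus held peaks more often than the genome grid, and the windows of the genes themselves more often still, on only 9 genes. For promoter peaks the shares of genes were 33.3% in VCaP (7.49 to 70.1) and 55.6% in LNCaP (21.2 to 86.3). In a grid of 6 kb windows, the width of the promoter class, 1.80% held a VCaP summit and 4.01% an LNCaP summit. The grid is not made of start sites, and the share of other genes' start sites with a peak was not analysed here, so nothing particular to androgen-responsive genes can be read from it.

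**Figure D1:**
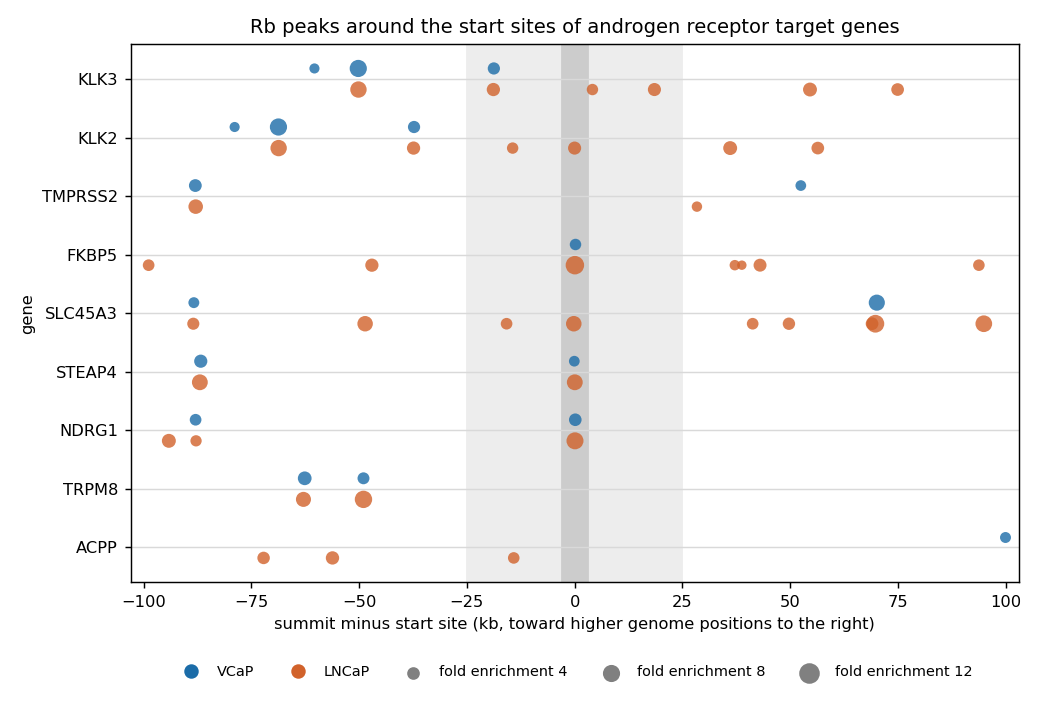
Position of Rb peak summits around the 9 start sites, as summit minus start site in kb; blue circles are VCaP, orange circles LNCaP, area is proportional to fold enrichment, the light band is the 25 kb window and the dark band the 3 kb promoter class. FKBP5, STEAP4 and NDRG1 carry a circle of each colour at 0, KLK2 and SLC45A3 an orange one alone, and the KLK peaks appear in the rows of both KLK genes.

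Fold enrichment is the authors' own value for each peak, the ratio of the tags over the summit to the local background of the same library. In VCaP all 4 peaks at the loci lay below the list's median of 5.51, with a median of 4.80 and a range of 3.93 to 5.42. In LNCaP the 9 peaks had a median of 5.99, next to the list's 6.00, and promoter peaks mostly lay above distal ones. The 5 LNCaP promoter peaks had folds of 5.85 to 11.6 (median 8.57), and 4 of them, all but the peak at KLK2, exceeded the list's upper quartile of 7.59. These folds were not set against promoter peaks of other genes, so nothing particular to these genes can be read from them. The 4 distal peaks ranged from 4.44 to 5.99 (median 4.60), and all 4 lay below the list's median, the highest only just. The LNCaP promoter peaks at FKBP5, SLC45A3 and NDRG1 were also tall, with 37, 35 and 34 tags at the summit against 6 to 21 for the distal peaks and a list median of 13, while those at KLK2 and STEAP4, with 16 and 15, were within the distal range.

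**Figure D2:**
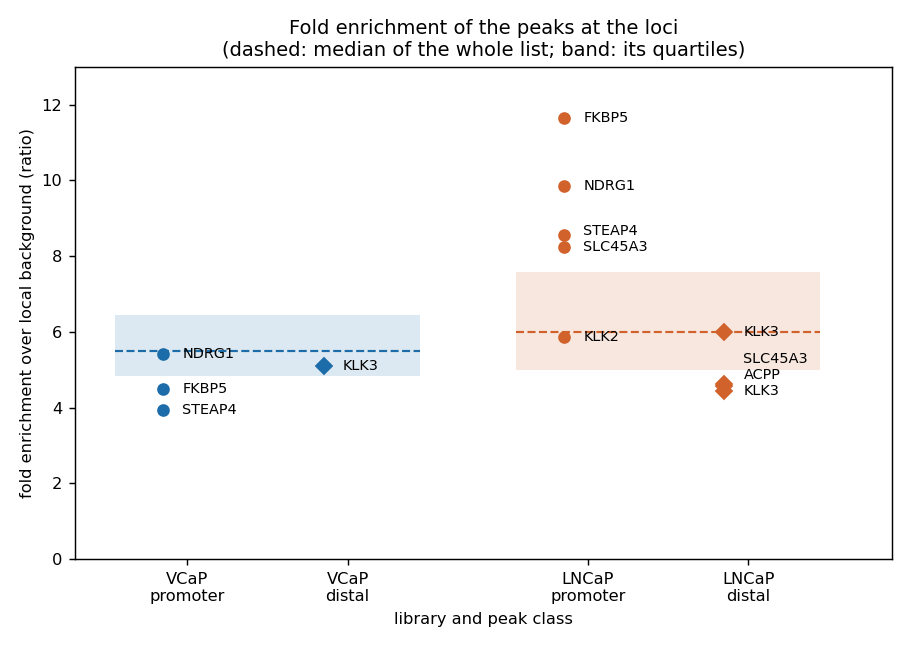
Fold enrichment (ratio to local background) of each peak at the loci, by library and by class; circles are promoter peaks, diamonds distal peaks, the dashed line is the median of the whole list and the band its quartiles. The VCaP symbols lie between 3.93 and 5.42, all under the dashed line, and the LNCaP promoter symbols reach 11.6 while the LNCaP distal symbols end at 5.99.

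Among the secreted prostate proteins, KLK3 encodes prostate-specific antigen, the serine protease measured in blood as a tumour marker, and KLK2 encodes a related kallikrein that can activate it. Their start sites lie 18518 bp apart on chromosome 19, at 51358171 for KLK3 and 51376689 for KLK2, in the same direction of transcription. In LNCaP a peak covered the KLK2 start site, at 51376544–51376857, with its summit 8 bp upstream, 16 tags and a fold enrichment of 5.85 (rank 11743 of 21994). No VCaP peak was called there, and the nearest VCaP summit lay 37260 bp upstream of KLK2. At the KLK3 start site neither library had a peak. The nearest LNCaP summit was 4134 bp downstream of the KLK3 start, in a peak at 51362186–51362429 with 15 tags and a fold of 4.44 (rank 19474), which was found in LNCaP alone.

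The promoters of these genes are close copies, and their sequences are shown because the LNCaP list has a peak at one and not at the other. Both are RefSeq windows of 300 bases in build GRCh38.p14, from 250 bases before the start site to 50 after it, on the plus strand, at chr19:50854665-50854964 for KLK3 and chr19:50873189-50873488 for KLK2. Capitals mark the match to an androgen response element searched as GAACA followed after any 4 bases by GTNCT, on either strand.
KLK3: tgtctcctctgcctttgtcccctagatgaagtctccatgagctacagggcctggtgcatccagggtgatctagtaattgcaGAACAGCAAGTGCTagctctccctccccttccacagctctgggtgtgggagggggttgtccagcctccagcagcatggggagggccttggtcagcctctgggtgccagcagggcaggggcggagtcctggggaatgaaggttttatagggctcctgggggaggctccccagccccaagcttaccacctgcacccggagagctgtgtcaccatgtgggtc
KLK2: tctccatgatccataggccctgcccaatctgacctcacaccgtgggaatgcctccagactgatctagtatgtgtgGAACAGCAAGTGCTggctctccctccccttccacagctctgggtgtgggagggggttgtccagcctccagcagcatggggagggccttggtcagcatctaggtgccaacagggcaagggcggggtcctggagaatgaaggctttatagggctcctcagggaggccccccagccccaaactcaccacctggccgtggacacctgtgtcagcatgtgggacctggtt
A global alignment found 251 identical positions in 313 columns, or 80.2%. The same 14 bases, GAACAGCAAGTGCT, begin 169 bases before the RefSeq start of KLK3 and 175 bases before that of KLK2. The LNCaP peak at KLK2 begins at 51376544, nearer to the hg19 start site of 51376689 than these bases are to the RefSeq start. By these distances the KLK2 match lies just outside the called peak. The spacing of the RefSeq windows differs by a few bases from that of the hg19 start sites. The RefSeq starts of KLK3 and KLK2 may therefore not both be the sites used for the peaks. The proximal KLK3 promoter is known for an androgen response element. Letters that match the search were present in 87 of 35116 RefSeq promoter windows, or 0.248%. Of the 7 member genes with a window in the table, KLK3 and KLK2 were those with a match. An element in KLK3 was known beforehand and the KLK2 promoter is a close copy, so these matches show nothing about the members as a set. A match describes letters only. How tags that align to both genes were treated is not given in the sources used here.

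One site in the kallikrein region was found in both lines, upstream of KLK3. In VCaP the peak was at 51339103–51339590, with 12 tags and a fold of 5.09. In LNCaP it was at 51339010–51339656, with 21 tags and a fold of 5.99. The summits lay 18742 bp and 18855 bp from the KLK3 start, 113 bp from each other. The fold of the LNCaP peak was 1.18 times that of VCaP, close to the pairs of the whole series, whose median ratio was 1.32. The strongest site within 100 kb of KLK3 fell outside the window, 50.2 kb upstream in both lines, with a fold of 10.1 in VCaP and 9.15 in LNCaP.

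ACPP, listed as ACP3 in current annotation, encodes prostatic acid phosphatase, an enzyme secreted in seminal fluid. Its start site on chromosome 3, at 132036211, had no promoter peak. LNCaP had 1 distal peak there, 14128 bp upstream at 132021934–132022198, with 6 tags and a fold of 4.57. This was the lowest pileup among the 13 peaks, over a background that corresponds to 22 tags per 10 kb. The nearest VCaP summit was 99.8 kb away, the only VCaP peak within 1 Mb of this start site, against 16 LNCaP peaks.

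Among the proteins of cell membranes, SLC45A3 encodes prostein, a transporter-like protein of prostate epithelium. Its start site is on chromosome 1 at 205649630. LNCaP had a promoter peak at 205648959–205649629, with the summit 200 bp downstream, 35 tags, a length of 671 bp and a fold of 8.23 (rank 4150). This peak, the longest of the 13, had no counterpart in VCaP. A second LNCaP peak, 15790 bp downstream at 205633712–205634053, had 16 tags and a fold of 4.63, and it too was missing from the VCaP list. The nearest VCaP summit was 70.1 kb upstream, where VCaP had a fold of 8.87 (32 tags). An LNCaP peak overlapped it, with its summit 69.8 kb upstream and a fold of 10.8 (31 tags). Within 25 kb SLC45A3 thus had 2 peaks in LNCaP and 0 in VCaP. The VCaP list gives no value for a site without a peak, so the size of the difference is not known.

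STEAP4 encodes a metalloreductase of cell membranes. Peaks lay over its start site on chromosome 7, at 87936206, in both lines. The VCaP peak at 87936056–87936280 had 13 tags and a fold of 3.93, higher than 2.92% of VCaP peaks. The LNCaP peak at 87936008–87936476 had 15 tags and a fold of 8.57, above 83.9% of LNCaP peaks. The VCaP peak was 225 bp long, the shortest length in its list and equal to the modelled fragment, and the LNCaP peak 469 bp. The lists differ in length and depth, so these places describe each library by itself.

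TMPRSS2 encodes a serine protease of the cell surface, and TRPM8 a cation channel that senses cold. Neither had a peak within 25 kb in either line. The nearest summits to the TMPRSS2 start site, on chromosome 21 at 42880085, were 28.4 kb away in LNCaP, just beyond the window, and 52.5 kb away in VCaP. They had 7 tags with a fold of 3.71 and 13 tags with a fold of 3.93, both low in their lists (ranks 21635 of 21994 and 9144 of 9423). At TRPM8, whose start site is on chromosome 2 at 234826043, the nearest peak was the same site in both lines, 49.0 kb upstream. Its fold was 10.3 in LNCaP (17 tags) and 4.85 in VCaP (8 tags). The 25 kb around these start sites was thus empty of called peaks, so that Rb was not detectable there at this depth, which does not show that it was absent.

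Among the genes for proteins inside the cell, FKBP5 encodes a co-chaperone of HSP90 that takes part in steroid receptor folding. Its start site on chromosome 6, at 35656692, carried the highest fold of all 13 peaks, in LNCaP. That peak, at 35656504–35656982, had 37 tags and a fold of 11.6, rank 759 and above 96.5% of the LNCaP list. The VCaP peak, at 35656627–35656903, had 12 tags and a fold of 4.50, above 13.5% of its list. Summits lay 60 bp and 41 bp upstream of the start, 19 bp from each other. LNCaP had 6 further peaks within 100 kb, of which 3 formed a group 37.2 to 43.0 kb upstream with folds of 3.02 to 5.73, while VCaP had no other. FKBP5 has 2 RefSeq promoter windows in GRCh38.p14, and whether this group lies at one of them was not tested.

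NDRG1 encodes a stress-responsive protein studied for its part in growth and metastasis. Its start site on chromosome 8, at 134309547, was covered in both lines by peaks of nearly the same extent. The VCaP peak, at 134309257–134309861, had 31 tags and a fold of 5.42 with a −log10 q of 11.1. The LNCaP peak, at 134309238–134309862, had 34 tags and a fold of 9.85 with a −log10 q of 22.5. NDRG1 had the tallest VCaP peak of the loci, and the other 3 VCaP peaks had 12 or 13 tags. It was also the only VCaP member with a −log10 q of at least 5, a limit below the median of the whole VCaP list, 5.36.

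All 4 VCaP peaks at the loci were overlapped by an LNCaP peak, beside 71.2% of the 9393 VCaP peaks on chromosomes 1 to 22 and X. Of the 9 LNCaP peaks, 4 were overlapped by a VCaP peak (44.4%, 13.7 to 78.8), beside 30.2% of the 21955 LNCaP peaks on these chromosomes. The unshared LNCaP peaks were the promoter peaks of KLK2 and SLC45A3 and 3 of the 4 distal peaks. In each of the 4 shared pairs the fold was the higher in LNCaP, a direction held by 80.8% of all 6688 pairs, so that the direction alone does not set the loci apart.

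The sizes of the differences varied between the shared sites. The ratio of LNCaP to VCaP fold was 2.59 at FKBP5, 2.18 at STEAP4, 1.82 at NDRG1 and 1.18 at the distal KLK3 site. The 3 promoter ratios all exceeded the upper quartile of the 6688 pairs, which was 1.62. The FKBP5 ratio was higher than that of 98.9% of pairs, the STEAP4 ratio higher than 95.8% and the NDRG1 ratio higher than 85.8%. The VCaP folds at FKBP5 and STEAP4 were low in their list, above 13.5% and 2.92% of it. The ratios were not set against pairs of like VCaP fold, nor against promoter pairs alone. With 1 library per line the ranks of the ratios are places in a distribution of sites, and the spread between cultures is not known.

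**Figure D3:**
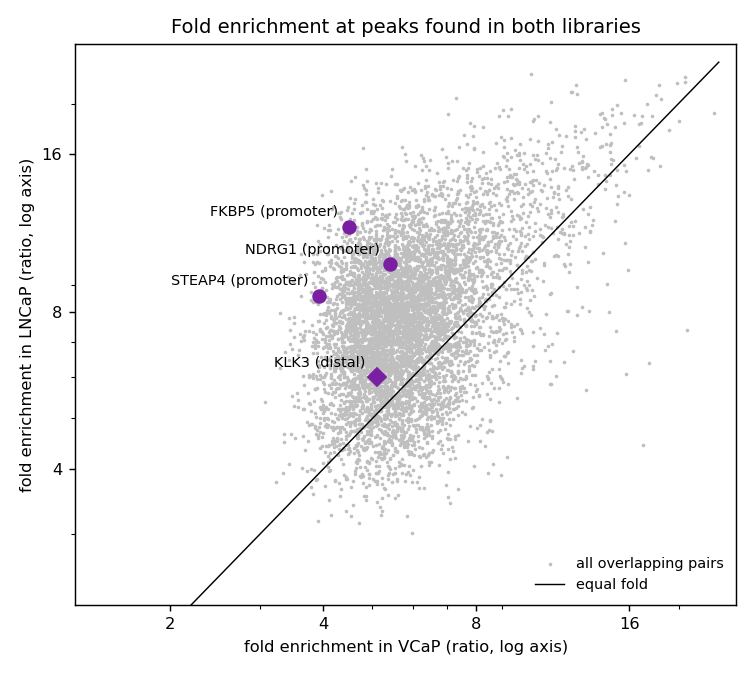
Fold enrichment in LNCaP against VCaP, both on log axes, at 6688 peaks found in both lists (grey) and at the 4 shared sites of the androgen-responsive genes (purple; circles promoter, diamond distal); the line marks equal fold. The 3 promoter circles lie above the line on its left side, with FKBP5 the highest at 4.50 and 11.6, and the KLK3 diamond lies nearer to the line.

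Fold enrichment is made of the summit pileup and the local background, and these parts differed among the shared promoters. At FKBP5 the pileup per 1000000 tags of the library was 1.38 in VCaP and 10.1 in LNCaP, a ratio of 7.30 that exceeded 97.8% of pairs. At NDRG1 the values were 3.57 and 9.26, a ratio of 2.60, and at STEAP4 1.496 and 4.09, a ratio of 2.73. Both of these were below the median ratio of all pairs, 3.35. FKBP5 thus differed between the libraries in pileup as well as in fold, while STEAP4 and NDRG1 had a high fold ratio with a pileup ratio under the median.

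The local background at these sites was read back from pileup and fold, as tags in 10 kb per 1000000 tags of the library. It came to 13.1 in VCaP and 9.81 in LNCaP at STEAP4, a ratio of LNCaP to VCaP of 0.748, lower than in all but 2.45% of pairs. At NDRG1 it was 25.1 and 28.9, a ratio of 1.15, with 8.97% of pairs below it. At FKBP5 it was 9.66 and 25.6, a ratio of 2.65, near the median ratio of 2.37, and at the distal KLK3 site 7.94 and 30.2, a ratio of 3.81. The VCaP background at NDRG1 and STEAP4 was above the upper quartile of VCaP peaks, 10.4. In LNCaP the background at NDRG1, FKBP5 and the distal KLK3 site was above the upper quartile of LNCaP peaks, 21.8, and that at STEAP4 was not. These windows include the tags of the peak itself. Both lines are aneuploid, and with no control library DNA copy number and Rb signal in the background cannot be told apart.

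CpG content was somewhat above the median of all genes in the promoter windows of SLC45A3 and STEAP4, which had a promoter peak, and below it in those of KLK3, ACPP and TRPM8, which had none. CpG dinucleotides are depleted from most of the genome and kept in CpG islands, where many broadly expressed genes start. The ratio of observed to expected CpG had a median of 0.579 over all 35116 RefSeq promoter windows (quartiles 0.229 and 0.856). It was 0.747 for SLC45A3 and 0.728 for STEAP4, higher than 62.1% and 60.3% of windows and within the quartiles. It was 0.0719 for KLK3 and 0.152 for ACPP, and the 6 windows of TRPM8 ranged from 0.0437 to 0.324. KLK2 departed from this pattern: its ratio was 0.109, higher than only 10.6% of windows, and LNCaP had a peak there. FKBP5 has 2 windows, with ratios of 0.911 and 0.130, and which of them belongs to the hg19 start site used here was not settled, since the builds differ. TMPRSS2 and NDRG1 have no window in the table used. With so few genes this is a description, and no test was made.

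Sequences of 3 of these windows are given to show the contrast in CpG, which the capitals mark. They are 300-base RefSeq windows in GRCh38.p14, read along the gene's strand: SLC45A3 from chr1:205680460-205680759 (minus strand), STEAP4 from chr7:88306845-88307144 (minus strand) and ACPP from chr3:132317157-132317456 (plus strand).
SLC45A3: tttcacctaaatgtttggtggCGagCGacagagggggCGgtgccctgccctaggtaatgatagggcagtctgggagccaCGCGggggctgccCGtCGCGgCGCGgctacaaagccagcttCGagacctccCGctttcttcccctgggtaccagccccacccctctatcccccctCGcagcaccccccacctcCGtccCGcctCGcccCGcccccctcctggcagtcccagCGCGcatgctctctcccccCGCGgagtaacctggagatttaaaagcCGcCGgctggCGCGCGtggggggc
STEAP4: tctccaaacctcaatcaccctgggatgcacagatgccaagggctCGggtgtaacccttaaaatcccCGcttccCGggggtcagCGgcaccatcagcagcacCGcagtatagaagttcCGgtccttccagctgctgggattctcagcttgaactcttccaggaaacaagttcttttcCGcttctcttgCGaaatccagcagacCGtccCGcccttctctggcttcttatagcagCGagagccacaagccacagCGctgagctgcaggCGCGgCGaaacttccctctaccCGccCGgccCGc
ACPP: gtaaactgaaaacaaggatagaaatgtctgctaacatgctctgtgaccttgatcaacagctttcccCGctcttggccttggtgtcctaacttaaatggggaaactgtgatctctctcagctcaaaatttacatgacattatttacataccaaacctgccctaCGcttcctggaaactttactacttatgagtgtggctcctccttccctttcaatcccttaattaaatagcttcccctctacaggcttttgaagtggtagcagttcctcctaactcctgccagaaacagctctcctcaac
They hold 26 CpG in SLC45A3, 18 in STEAP4 and 2 in ACPP. An E2F site, searched as TTTCCCGC, TTTCGCGC, TTTGCCGC or TTTGGCGC on either strand, each of which contains a CpG, was found in none of the 13 windows of the 7 genes and in 3.31% of all windows. A cell cycle homology element (CHR), searched as TTTGAA or TTCGAA on either strand, was found in the ACPP window and in 1 of the FKBP5 windows, and in 16.4% of all windows. The lack of these letters in 300 bases says nothing about E2F or Rb at the gene.

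**Figure D4:**
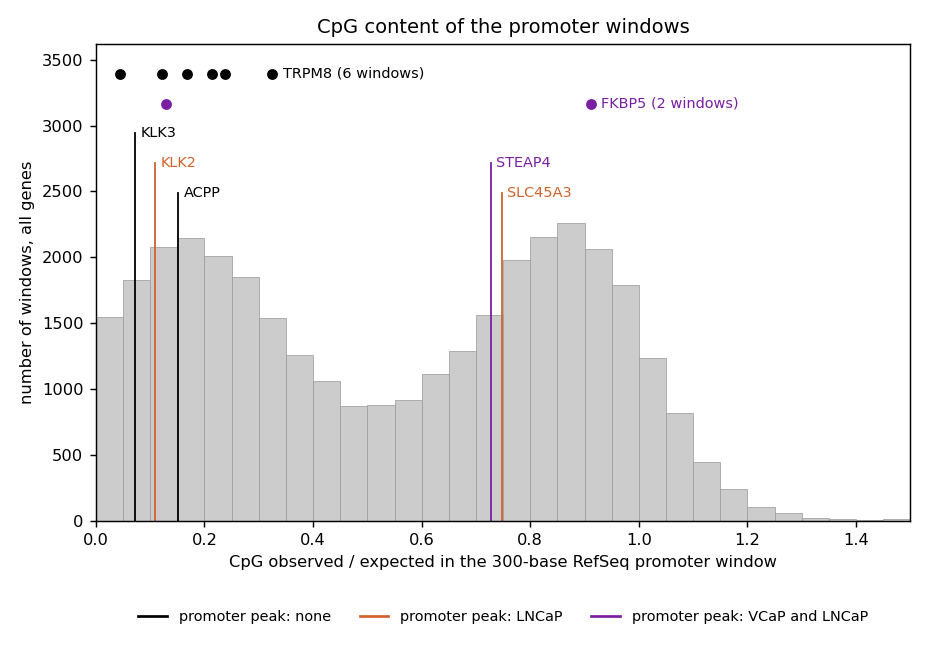
Ratio of observed to expected CpG in 300-base promoter windows, where grey bars count all 35116 RefSeq windows (values above 1.5 are in the last bar). Vertical lines mark genes with 1 window and dots the windows of FKBP5 and TRPM8. Colour gives the promoter peak at the gene's hg19 start site, so all windows of a gene share 1 colour. KLK3, ACPP and all TRPM8 windows lie at 0.324 or less and have no promoter peak, SLC45A3 and STEAP4 lie above 0.7 and have one, and KLK2 lies at 0.109 with a peak in LNCaP.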

How the data were processed

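Rb ChIP-seq was deposited as 1 peak list per cell line, and lists were grouped by that label. Peak calling by the authors used MACS 2.1.0.20140616 on each library alone, with no control, a q-value limit of 0.05 and 1 tag per position, per the file headers. The deposited pileup is a coverage signal, not scaled to depth. The deposited fold enrichment is a ratio of pileup plus 1 to local background plus 1, and the deposited −log10 p and −log10 q values come from the same caller. The build is hg19, per the submitters' processing notes. The aligner is not given in the sources used here.

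Start sites came with the gene list. Members and lists were chosen with earlier results of these data known. Named were all 9 genes, each peak at them and the nearest peak elsewhere. Overlap needed 1 bp, and the partner of highest fold was taken. Intervals are exact Clopper-Pearson (scipy 1.17.1) and cover counting error only. Peak assignment and pairing were tested on simulated peaks. The share of windows within 1 Mb, the promoter sequence measures and the motifs were chosen after seeing the peaks. Promoter sequences are from RefSeq, GRCh38.p14, where 7 of 9 genes matched (Biopython 1.88). Planned lists of further androgen-responsive, E2F-regulated and other genes were not analysed here, because their start sites were not at hand in hg19. Alternatives were other windows, promoter limits, score limits, overlap rules and lists of equal length.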

Additional observations from a re-analysis of the deposited data

How the results depend on the processing

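Of 41 alternatives in the same unit as the reported count or median, 30 stayed close to the reported value (counts within 1.5 times, medians within 1 SD of the peaks at the loci) and 11 did not. With −log10 q of at least 5, VCaP kept 1 peak, 1 gene with a peak and 1 promoter peak, all NDRG1. The median −log10 q of the whole VCaP list was 5.36. With a fold of at least 5, a limit below the VCaP list's median of 5.51, VCaP had 2 peaks at 2 genes. With lists of equal length, LNCaP had 4 peaks at 4 genes, the promoters of FKBP5, NDRG1, STEAP4 and SLC45A3. A window of 50 kb gave 19 LNCaP peaks. One of 100 kb gave 15 in VCaP and 34 in LNCaP, with all 9 genes reached in VCaP too. No share of genome windows was counted at these wider limits, so these counts show nothing particular to the loci. In place of the median fold, the median pileup per 1000000 tags was 1.44 in VCaP, beside 1.496 for its list, and 4.36 in LNCaP, beside 3.54; as another unit it has no bearing on the stability of the fold. The number of promoter peaks in LNCaP stayed at 4 to 6 under every alternative run for it. No paired analysis was possible because each line has 1 library. The 1 library per line, the lack of a control and the low pileups, 6 to 37 tags, limit what these lists show.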
